A study of Mus musculus with 14 samples.

Results

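The genes described here make NAD from tryptophan or meet that route, and they were followed in whole mouse kidney. They are Kynu, Kmo, Haao, Qprt, Acmsd, Nmnat1, Nadsyn1, Nampt, Nnmt and Sirt1, chosen by gene symbol. All 10 were found among the 23682 genes present in both deposited tables, and all 10 passed the filter on low counts that left 18810 genes for testing. The 14 libraries were bulk RNA sequencing of whole kidneys from adult mice, all given doxycycline in the drinking water. The 4 controls carried actin-rtTA alone, with no injection recorded, and were taken at day 30. The i-TERTci mice carried actin-rtTA and TetOp-TERTci, both heterozygous, so that doxycycline switched on TERTci, a catalytically inactive telomerase reverse transcriptase, throughout the body. Of these, 5 received daily intraperitoneal injections of the DMSO vehicle and were taken at days 29 to 38. The other 5 received GSK2830371, an inhibitor of the phosphatase WIP1, and were taken at days 28 to 49. Injections began after heavy proteinuria had set in. In such bulk samples, fewer cells of a type and less RNA per cell cannot be told apart.

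As background, cells build NAD along a long route from tryptophan and along a short one from nicotinamide. In the long, or de novo, route tryptophan is opened to kynurenine, Kmo and Kynu carry it to 3-hydroxyanthranilate, and Haao turns that into aminocarboxymuconate semialdehyde. This unstable intermediate either closes by itself to quinolinate, which Qprt commits to NAD, or is diverted by Acmsd towards full oxidation. In the kidney the de novo route is known above all from proximal tubule cells. Nampt runs the short salvage route, Nmnat1 completes the dinucleotide for both, and sirtuins such as Sirt1 consume NAD.

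Reads recovered in genes numbered 47194888 to 64581825 per library. Reads assigned to Tert were 117 to 183 normalised reads in the controls, 574 to 2730 in the DMSO group and 231 to 2550 in the GSK2830371 group, in the direction of the labels. Normalised reads are whole reads divided by a size factor per library. Mitochondrial reads made up 14.45% to 24.18% of control libraries and 4.95% to 9.52% of i-TERTci libraries. Xist was high in the 4 controls, against 2 of 5 DMSO and 3 of 5 GSK2830371 libraries, so values within the Xist-positive libraries stand beside several results. In the GSK2830371 group the Xist-positive libraries are those of day 49, and the others those of days 28 and 31. Sex and day thus cannot be told apart in that group, and its Xist-positive values set day 49 against controls of day 30. The replicates carry only numbers in the labels, and the p-values measure only the spread between these libraries, which may be technical in part.

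In i-TERTci kidneys most of the de novo genes were lower than in controls, Acmsd by far the most, and Sirt1 was higher. In the DMSO group against the controls, 6 of the 10 genes fell (Kynu, Haao, Qprt, Acmsd, Nmnat1 and Nadsyn1) and 1 rose (Sirt1). Across all 18810 genes tested, 23.1% were called lower and 25.2% higher, by limma with a Benjamini-Hochberg adjusted p under 0.05. In the GSK2830371 group against the controls, 5 of the 10 fell and 1 rose, beside 22.1% and 24.3% of all genes. The 5 were those of the DMSO comparison without Kynu. The median log2 change of the 10 genes was -0.68 in the DMSO group and -0.78 in the GSK2830371 group, beside 0.03 and 0.01 over all genes tested. In the DMSO group 5 of the 10 genes lay below the controls in every library and 1 above, beside 18.8% and 20.0% of all genes. In the GSK2830371 group 5 lay below and 1 above, beside 19.6% and 20.8%. The comparisons with control share the 4 control libraries. Between GSK2830371 and DMSO none of the 10 was called, and 0% of the 18810 genes were. No member's libraries were apart between these groups either, beside 0.239% of genes apart upwards and 0.245% downwards.

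**Figure D1:**
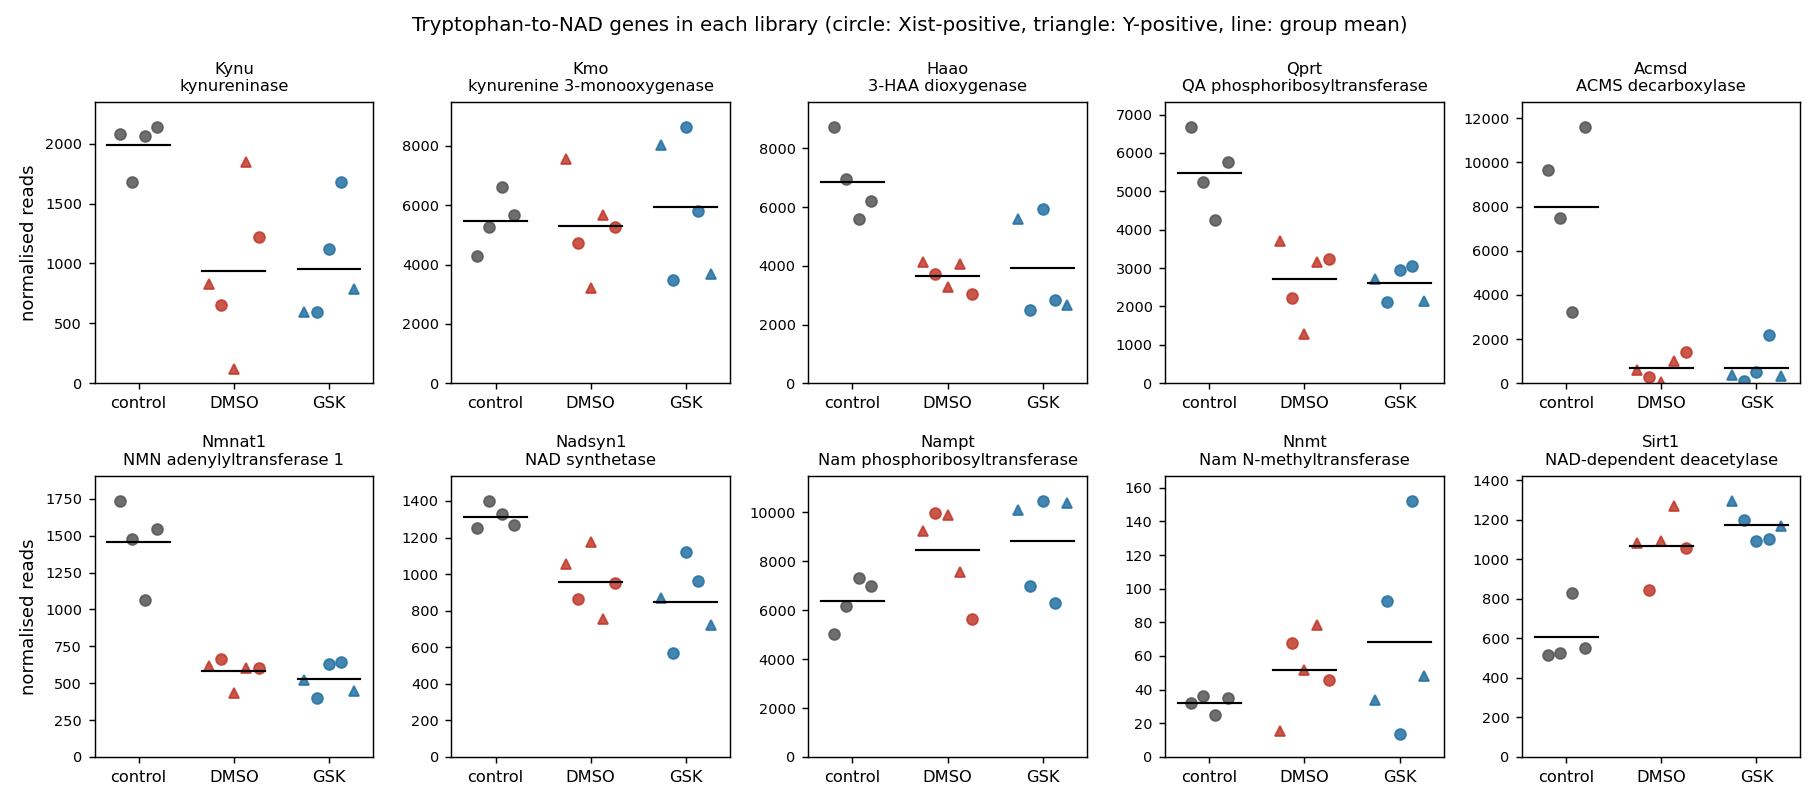
Normalised reads of each of the 10 genes (vertical axis, starting at 0) in every library of the 3 groups, with circles for Xist-positive libraries, triangles for Y-positive ones and a line at the group mean. Acmsd, Nmnat1 and Qprt show control libraries above every i-TERTci library, and Sirt1 shows them below every one.

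The start regions of 3 called genes, chosen after their values were seen, are printed as examples that differ in base composition. Composition was not tested against direction. Nmnat1 fell with a window rich in G and C, while the richest windows were those of Sirt1, which rose, and Nampt, which was not called. RefSeq windows of 300 bases around the annotated start (GRCm38.p6) were used for 7 of the 10 genes, all but Kynu, Nnmt and Acmsd. Kynu and Nnmt had no window in the set used, while Acmsd was left out by choice before the search. Capitals mark matches on either strand to AGGTCA, the core word of nuclear receptor sites, GGGCGG, the GC box bound by Sp1, and CACGTG, the E-box, which reads the same on both strands. CAAAGTCCA, a word of HNF4A sites, was also searched. The windows are chr17:83846741-83847040 on the minus strand for Haao, chr4:149485161-149485460 on the minus strand for Nmnat1 and chr10:63338986-63339285 on the minus strand for Sirt1, each written 5′ to 3′ along its gene. The RefSeq starts used for Sirt1 and Kmo lie well inside the GENCODE gene bounds given with their values, and those for Haao and Nampt less far inside. The windows of these genes do not reach the GENCODE gene start, so the annotations place these starts differently.
Haao: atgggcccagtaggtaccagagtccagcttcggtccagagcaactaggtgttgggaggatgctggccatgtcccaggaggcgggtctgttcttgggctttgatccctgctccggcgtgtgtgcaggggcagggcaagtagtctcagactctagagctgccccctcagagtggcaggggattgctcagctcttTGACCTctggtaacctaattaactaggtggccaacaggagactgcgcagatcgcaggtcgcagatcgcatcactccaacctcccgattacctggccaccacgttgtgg
Nmnat1: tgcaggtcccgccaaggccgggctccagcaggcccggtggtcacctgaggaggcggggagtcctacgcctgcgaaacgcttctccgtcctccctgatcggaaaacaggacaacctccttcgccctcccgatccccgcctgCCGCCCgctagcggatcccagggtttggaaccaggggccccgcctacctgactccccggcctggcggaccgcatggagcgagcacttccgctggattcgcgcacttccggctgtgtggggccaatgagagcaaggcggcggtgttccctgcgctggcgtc
Sirt1: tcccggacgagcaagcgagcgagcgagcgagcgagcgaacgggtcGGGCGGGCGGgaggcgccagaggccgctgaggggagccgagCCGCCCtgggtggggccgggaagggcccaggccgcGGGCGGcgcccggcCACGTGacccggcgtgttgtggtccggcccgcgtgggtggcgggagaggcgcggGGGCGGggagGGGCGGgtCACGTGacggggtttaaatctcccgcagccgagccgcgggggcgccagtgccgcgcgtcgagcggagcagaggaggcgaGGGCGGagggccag

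The Haao window was 58.7% G or C with 10 CpG pairs and held 1 AGGTCA match, a word found in 16.3% of all 32817 windows. The Nmnat1 window was 69.0% G or C with 28 CpG pairs and held 1 GC box, a word found in 35.6% of windows. The Sirt1 window was 79.0% G or C with 47 CpG pairs and held 7 GC boxes, some overlapping, and 2 E-boxes, the latter found in 7.15% of windows. The median window was 52.7% G or C with 7 CpG pairs. The Qprt window (60.3%) and the Kmo window (44.3%), each with 7 CpG pairs, held none of these words. The Nadsyn1 window (65.7%) held 2 GC boxes, and the Nampt window (76.3%) held 5 GC boxes and 1 AGGTCA match. CAAAGTCCA, found in 0.475% of windows, was in none of these 7 windows. These matches are letters in a window and not measured binding.

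Of the upstream enzymes, Kynu was called lower in the DMSO group, and Kmo in neither group. Kmo, kynurenine 3-monooxygenase (chromosome 1, 175620381 to 175662116 on the plus strand, GRCm38), had 4290, 5264, 6602 and 5678 normalised reads in control replicates 1 to 4. It had 7543, 4730, 3209, 5663 and 5278 in DMSO replicates 1 to 5, and 8036, 3474, 8621, 5813 and 3683 in GSK2830371 replicates 1 to 5. The 3 groups overlapped, with both the highest and the lowest values in i-TERTci mice. The log2 difference was -0.08 (95% interval -0.69 to 0.52, limma adjusted p = 0.829) for DMSO against control and 0.03 (-0.57 to 0.64, adjusted p = 0.93) for GSK2830371 against control. The intervals still allow a fall of 0.69 or a rise of 0.64, so equality is not shown.

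Kynu, kynureninase (chromosome 2, 43555329 to 43682715, plus strand), had 2083, 1679, 2065 and 2136 normalised reads in the controls. The DMSO libraries had 827, 655, 120, 1844 and 1223, and the GSK2830371 libraries 597, 597, 1118, 1677 and 783. DMSO replicate 3 was far below the rest, and DMSO replicate 4 lay within the control range. All 5 GSK2830371 libraries were below all 4 controls, the nearest pair being 1677 and 1679. Kynu fell by 1.54 on the log2 scale in the DMSO group (SE 0.60, limma adjusted p = 0.0468). Without DMSO replicate 3 the change was -0.91 (adjusted p = 0.0408). The call was lost in 19 of 31 alternatives, with adjusted p from 0.0507 to 0.207, among them the removal of any control (0.0694 to 0.0839). In the GSK2830371 group the log2 difference was -1.17 (SE 0.60, adjusted p = 0.123) and was not called, although 6 alternatives passed, with adjusted p from 0.0042 to 0.0395. Within the Xist-positive libraries the differences from control were -1.15 for DMSO (adjusted p = 0.0351) and -0.93 for GSK2830371 (adjusted p = 0.0395).

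Haao, 3-hydroxyanthranilate dioxygenase (chromosome 17, 83831156 to 83847963, minus strand), had 8716, 6951, 5583 and 6221 normalised reads in the controls. It had 4128, 3737, 3289, 4060 and 3041 in the DMSO group, and 5605, 2485, 5950, 2824 and 2680 in the GSK2830371 group. The DMSO libraries were all below the controls and close together. The GSK2830371 libraries split, with replicates 1 and 3 at control level and the other 3 below every control. Haao fell by 0.90 on the log2 scale in both groups (SE 0.25 in each), with limma adjusted p = 0.0084 for DMSO and 0.00884 for GSK2830371. The log2 changes within the Xist-positive libraries were -1.01 (adjusted p = 0.0333) and -0.96 (adjusted p = 0.0186). The coefficient of variation was 13% in the DMSO group and 43.9% in the GSK2830371 group, a contrast that was not tested.

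Qprt, quinolinate phosphoribosyltransferase (chromosome 7, 127107114 to 127122226, minus strand), commits quinolinate to NAD. Its normalised reads were 6665, 5242, 4243 and 5773 in the controls, 3706, 2217, 1278, 3161 and 3243 in the DMSO group, and 2724, 2125, 2960, 3061 and 2144 in the GSK2830371 group. Every i-TERTci library was below every control, and DMSO replicate 3 was again the lowest. Qprt fell 2.12-fold in the DMSO group (log2 change -1.08, SE 0.26, limma adjusted p = 0.00297). It fell 2.1-fold in the GSK2830371 group (log2 change -1.07, SE 0.26, adjusted p = 0.00348). Both log2 changes were -1.01 within the Xist-positive libraries (adjusted p = 0.00959 and 0.00364).

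Acmsd, aminocarboxymuconate semialdehyde decarboxylase (chromosome 1, 127729413 to 127767978, plus strand), sits at the branch that drains the route before quinolinate. It had 9645, 7496, 3211 and 11589 normalised reads in the controls. It had 617, 273, 64.9, 1006 and 1393 in the DMSO group and 387, 115, 490, 2163 and 321 in the GSK2830371 group. Every i-TERTci library was below every control. The values nonetheless spanned 21.47-fold from lowest to highest among the DMSO libraries and 18.78-fold among the GSK2830371 libraries. Acmsd fell 16.54-fold in the DMSO group (log2 change -4.05, SE 0.89, limma adjusted p = 0.00228). It fell 16.59-fold in the GSK2830371 group (log2 change -4.05, SE 0.89, adjusted p = 0.00245). These were the greatest changes among the 10 genes in both comparisons. Without DMSO replicate 3 the fall in the DMSO group was 10.32-fold (adjusted p = 0.00387). Within the Xist-positive libraries, with 2 DMSO libraries left, the DMSO change was -3.54 and no longer passed (adjusted p = 0.0569), while the GSK2830371 change of -3.85 passed (adjusted p = 0.0228). An antisense gene, 2900009J06Rik, shares 94 exon bases with Acmsd, and since the strand setting is not given in the sources used here, its reads cannot be told apart there.

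Nmnat1 and Nadsyn1, which act late in NAD synthesis, were lower too. Nmnat1, the nuclear nicotinamide mononucleotide adenylyltransferase (chromosome 4, 149467572 to 149485202, minus strand), had 1734, 1475, 1066 and 1542 normalised reads in the controls. It had 617, 661, 433, 600 and 601 in the DMSO group and 524, 399, 633, 642 and 446 in the GSK2830371 group. The highest i-TERTci value, 661, was well below the lowest control, 1066. Nmnat1 fell 2.48-fold in the DMSO group (log2 change -1.31, SE 0.19, limma adjusted p = 7.25e-05). It fell 2.75-fold in the GSK2830371 group (log2 change -1.46, SE 0.19, adjusted p = 3.31e-05). Within the Xist-positive libraries the log2 changes were -1.18 (adjusted p = 0.00524) and -1.39 (adjusted p = 0.000829).

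Nadsyn1, NAD synthetase, amidates the last intermediate of the de novo route (chromosome 7, 143795584 to 143822849, minus strand). Its normalised reads were 1251, 1399, 1327 and 1268 in the controls, 1054, 862, 1174, 752 and 951 in the DMSO group, and 868, 568, 1122, 961 and 724 in the GSK2830371 group. Every i-TERTci library was below every control, but the gap between 1174 and 1251 was narrow. Nadsyn1 fell by 0.66 on the log2 scale in the GSK2830371 group (SE 0.19, limma adjusted p = 0.00887), and that call held in all 31 alternatives. In the DMSO group it fell by 0.47 (SE 0.19, adjusted p = 0.049), and the call was lost in 19 of 31 alternatives, with adjusted p from 0.0507 to 0.203. Within the Xist-positive libraries the changes were -0.53 for DMSO (adjusted p = 0.11) and -0.62 for GSK2830371 (adjusted p = 0.0355).

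Nampt and Nnmt showed no called change. Nampt, the rate-limiting enzyme of nicotinamide salvage (chromosome 12, 32819545 to 32853349, plus strand), had 5009, 6186, 7315 and 7010 normalised reads in the controls. It had 9255, 9987, 9907, 7568 and 5623 in the DMSO group and 10102, 6978, 10462, 6292 and 10403 in the GSK2830371 group. Of the DMSO libraries 4 of 5 were above all controls, and of the GSK2830371 libraries 3 of 5 were. The log2 differences from control were 0.39 for DMSO (95% interval -0.06 to 0.84, limma adjusted p = 0.141) and 0.45 for GSK2830371 (0.00 to 0.90, adjusted p = 0.0919). These calls turned with single libraries and with other settings. Without DMSO replicate 5 the DMSO difference was 0.53 (adjusted p = 0.0394), and without GSK2830371 replicate 4 the GSK2830371 difference was 0.57 (adjusted p = 0.0399). Scaling by non-mitochondrial reads gave 0.56 for GSK2830371 (adjusted p = 0.0395), and the fit with the replicate block gave 0.53 for DMSO (adjusted p = 0.0423). The block fit also lacks DMSO replicate 5, so it is not separate from the removal of that library. Among Xist-positive libraries alone they were 0.25 (adjusted p = 0.524) and 0.29 (adjusted p = 0.369). Nampt is also known from neutrophils and macrophages. The summed level of 10 neutrophil markers was 160 to 261 normalised reads in the controls. It was 1018 to 30849 in the DMSO group and 558 to 21173 in the GSK2830371 group. In each i-TERTci group 9 of 10 markers were called higher, beside 25.2% of all genes with DMSO and 24.3% with GSK2830371. In controls 1 to 4 of the markers per library were at 0, namely Camp, Retnlg, Cd177, S100a8 or Ngp. The summed level of 10 macrophage markers was 8514 to 12836, 12938 to 94076 and 12760 to 36218 in the same order, with none of them at 0. Of the 10, 6 were called higher and 0 lower with GSK2830371, beside 24.3% and 22.1% of all genes. With DMSO 6 were higher and 1 lower, beside 25.2% and 23.1%. Csf1r, the receptor for macrophage colony-stimulating factor, was the lower one (log2 change -0.86, adjusted p = 0.0327), and Cd14 alone reached 78726 in a DMSO library; both were chosen after their values were seen. The part of these marker lists in the Nampt values was not tested.

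Nnmt, nicotinamide N-methyltransferase, clears nicotinamide by methylation (chromosome 9, 48591877 to 48605153, minus strand) and was scarce. It had 31.9, 36.2, 25.1 and 35.3 normalised reads in the controls, 15.7, 67.8, 51.9, 78.2 and 45.6 in the DMSO group, and 33.8, 92.9, 13.8, 152 and 48.4 in the GSK2830371 group. The i-TERTci libraries lay on both sides of the controls. The log2 differences were 0.51 (95% interval -0.71 to 1.74, limma adjusted p = 0.483) and 0.65 (-0.57 to 1.88, adjusted p = 0.37), so a rise or a fall of moderate size was not detectable at this depth and spread.

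Sirt1, an NAD-dependent deacetylase, was the gene that rose, and its start window is the richest in CpG pairs of those above (chromosome 10, 63319005 to 63381704, minus strand). It had 517, 528, 831 and 550 normalised reads in the controls, 1081, 844, 1094, 1270 and 1059 in the DMSO group, and 1295, 1200, 1091, 1102 and 1171 in the GSK2830371 group. Every i-TERTci library was above every control, although control replicate 3, at 831, came close to DMSO replicate 2, at 844. Sirt1 rose 1.78-fold in the DMSO group (log2 change 0.83, SE 0.16, limma adjusted p = 0.000684). It rose 1.97-fold in the GSK2830371 group (log2 change 0.98, SE 0.16, adjusted p = 0.000227). Within the Xist-positive libraries the log2 changes were 0.67 (adjusted p = 0.0372) and 0.93 (adjusted p = 0.00356). The antisense gene Gm16145 shares 65 exon bases with Sirt1, where the same limit on strand applies.

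**Figure D2:**
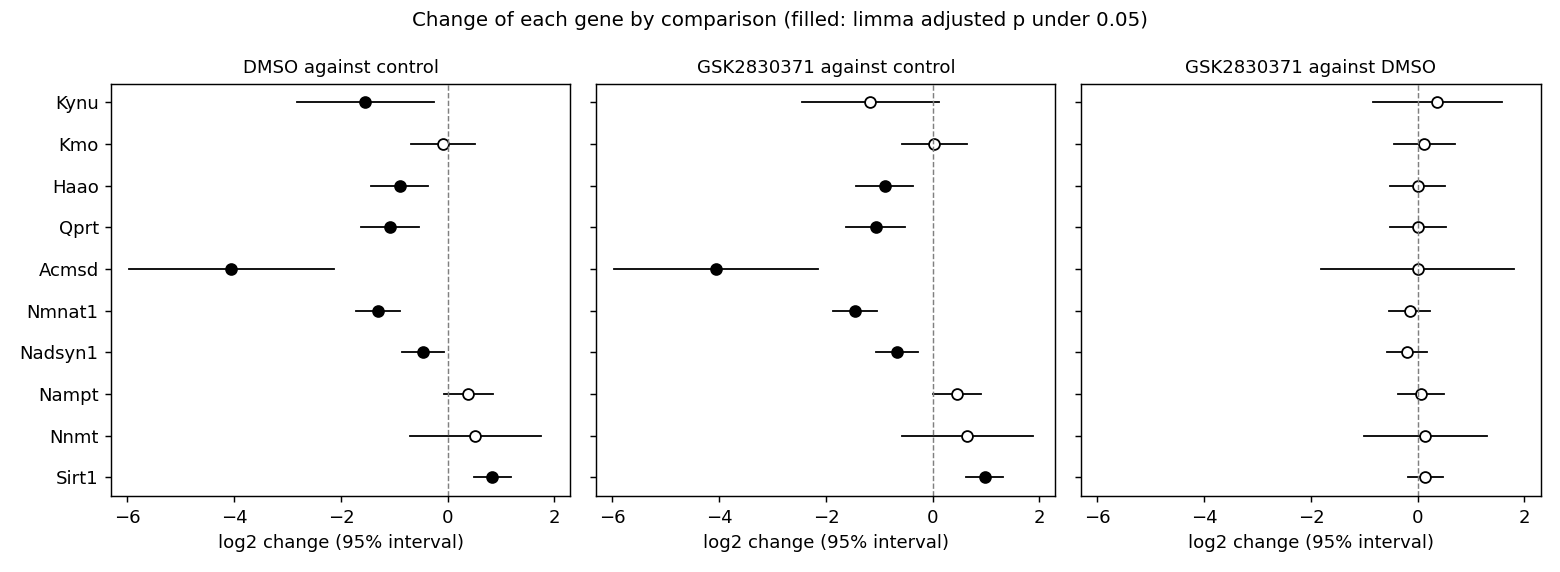
Log2 change of each gene (horizontal axis, points with 95% intervals) in the 3 comparisons, filled where the limma adjusted p was under 0.05. Acmsd lies at -4.05 in both comparisons with control, Sirt1 is the filled point above 0, and every interval of GSK2830371 against DMSO covers 0.

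Treatment with GSK2830371 was compared with the vehicle within i-TERTci mice. None of the 10 genes was called in either direction, where 0% of all genes were called. The log2 differences ran from -0.20 for Nadsyn1 to 0.36 for Kynu. Over the 18810 genes, 800 had an unadjusted p under 0.05, edgeR called 0 higher and 0 lower, and DESeq2 called 0 higher and 1 lower. The 95% intervals set the size of difference that the libraries could have missed. They were -0.18 to 0.47 for Sirt1, -0.53 to 0.23 for Nmnat1, -0.57 to 0.18 for Nadsyn1 and -0.36 to 0.49 for Nampt. They were -0.51 to 0.53 for Qprt, -0.51 to 0.51 for Haao and -0.45 to 0.69 for Kmo. The widest were -1.81 to 1.80 for Acmsd, -1.01 to 1.3 for Nnmt and -0.84 to 1.57 for Kynu. For Acmsd a difference of 1.8 on the log2 scale in either direction is thus within the interval. The GSK2830371 libraries of days 28 and 31 are 2, and those of day 49 are 3. Among the libraries of day 31 or earlier the largest difference of the 10 was 0.36, for Kynu, and none passed. There the 2 GSK2830371 libraries are both Y-positive, while the DMSO libraries are of both kinds.

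Levels were compared between genes as normalised reads per kb of the longest basic protein-coding transcript. In the controls Haao led with a mean level of 4973, followed by Acmsd at 2939, Qprt at 2673, Kmo at 1486 and Nampt at 1409. Below them came Kynu at 717, Nmnat1 at 547, Nadsyn1 at 496, Sirt1 at 137 and Nnmt at 30.8. The libraries of neighbours in this order did not overlap between Qprt and Kmo, Nampt and Kynu, Nadsyn1 and Sirt1, or Sirt1 and Nnmt; all other neighbours overlapped. In the DMSO group the order of mean levels was Haao (2644), Nampt (1871), Kmo (1439), Qprt (1327), Nadsyn1 (363), Kynu (336), Acmsd (247), Sirt1 (241), Nmnat1 (219) and Nnmt (49.7). In the GSK2830371 group it was Haao (2830), Nampt (1954), Kmo (1614), Qprt (1270), Kynu (344), Nadsyn1 (321), Sirt1 (265), Acmsd (256), Nmnat1 (199) and Nnmt (65.5). In both i-TERTci groups the only steps without overlap were below Qprt and above Nnmt. Acmsd thus stood at rank 2 of 10 in the controls, at rank 7 in the DMSO group and at rank 8 in the GSK2830371 group.

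**Figure D3:**
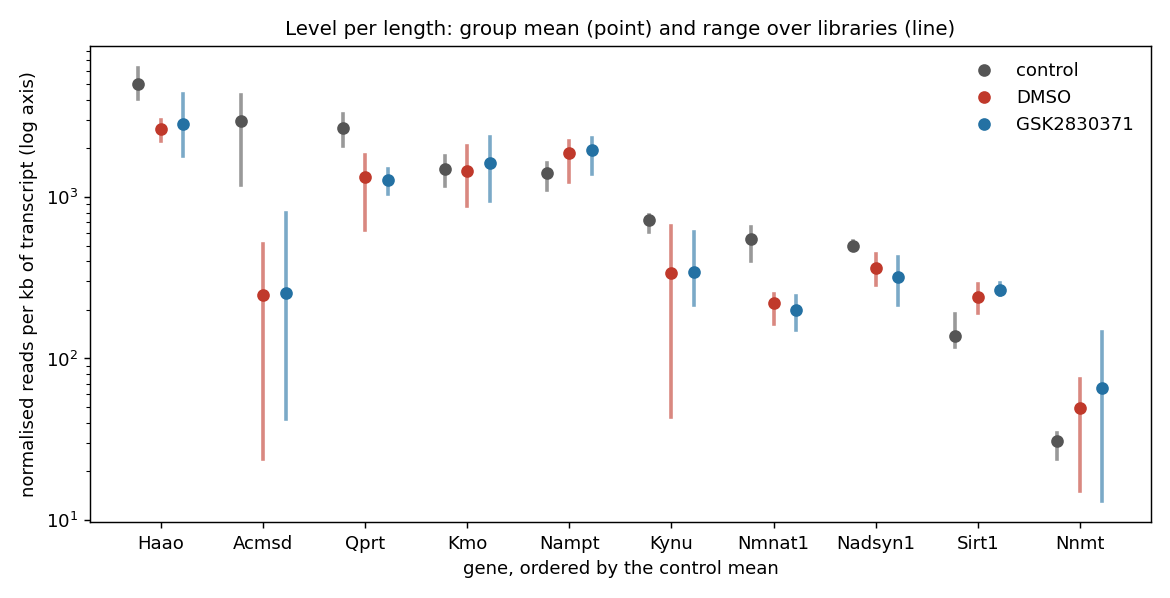
Mean level of each gene in normalised reads per kb of transcript (points, log axis) with the range over libraries (lines) in the 3 groups, ordered by the control mean. Acmsd drops from 2939 in the controls to 247 and 256, among the lower levels, while Haao stays at the head in every group.

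The 2 outlets of the semialdehyde were set against each other within each library. The log2 ratio of Qprt to Acmsd normalised reads was -1.01 to 0.40 in the controls, 1.22 to 4.30 in the DMSO group and 0.50 to 4.21 in the GSK2830371 group. All i-TERTci libraries were above all controls, with GSK2830371 replicate 4 closest. The median ratio was 0.695 in the controls, 6.01 in the DMSO group and 6.67 in the GSK2830371 group. The log2 ratio of Nampt to Qprt, a salvage and a de novo enzyme, was -0.41 to 0.79 in the controls, 0.79 to 2.95 in the DMSO group and 1.04 to 2.28 in the GSK2830371 group. Here DMSO replicate 5 met the highest control at 0.79. These ratios are of reads and not of protein or flux, and they were not tested.

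Most proximal tubule markers were lower in i-TERTci kidneys, and some were higher or not called. The summed level of 15 such markers was 2058560 to 2728790 normalised reads in the controls, 735730 to 1856189 in the DMSO group and 524011 to 1710500 in the GSK2830371 group, with none of the markers at 0 in any library. Of the 15, 8 were called lower and 0 higher in the DMSO group, beside 23.1% and 25.2% of all genes. In the GSK2830371 group 9 were lower and 2 higher, beside 22.1% and 24.3%. Slc34a1, the phosphate transporter, had a log2 change of -2.14 in the DMSO group (limma adjusted p = 0.00202), and Lrp2, which encodes megalin, one of -1.71 (adjusted p = 0.019). Slc4a4, a bicarbonate transporter, and Pck1, an enzyme of gluconeogenesis, went the other way, with differences of 0.57 (adjusted p = 0.0623) and 0.53 (adjusted p = 0.281) with DMSO and of 0.84 (adjusted p = 0.00994) and 1.06 (adjusted p = 0.0387) with GSK2830371. Cubn, Slc5a12, Slc27a2 and Fbp1 were called in neither group. Kap alone had a mean of 1020496 normalised reads in the controls, 466585 with DMSO and 139293 with GSK2830371, and so weighs heavily in the sum. The markers named from Slc4a4 onwards were chosen after their values were seen. Kmo had a difference of -0.08 in the DMSO group. Injured tubule markers summed to 58107 to 71301 in the controls and to 169402 to 1208222 over both i-TERTci groups, most of it Spp1, whose means were 45756, 548675 and 554522 in the controls, the DMSO group and the GSK2830371 group. Of the 6 injured tubule markers, 4 were called higher and 1 lower in each group, beside the same shares of all genes. The lower one was Havcr1, which encodes KIM-1, with log2 changes of -2.76 (adjusted p = 0.00953) and -2.42 (adjusted p = 0.0198). Spp1 and Havcr1 were also chosen after their values were seen. The part of these markers in the members' values was not tested.

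**Figure D4:**
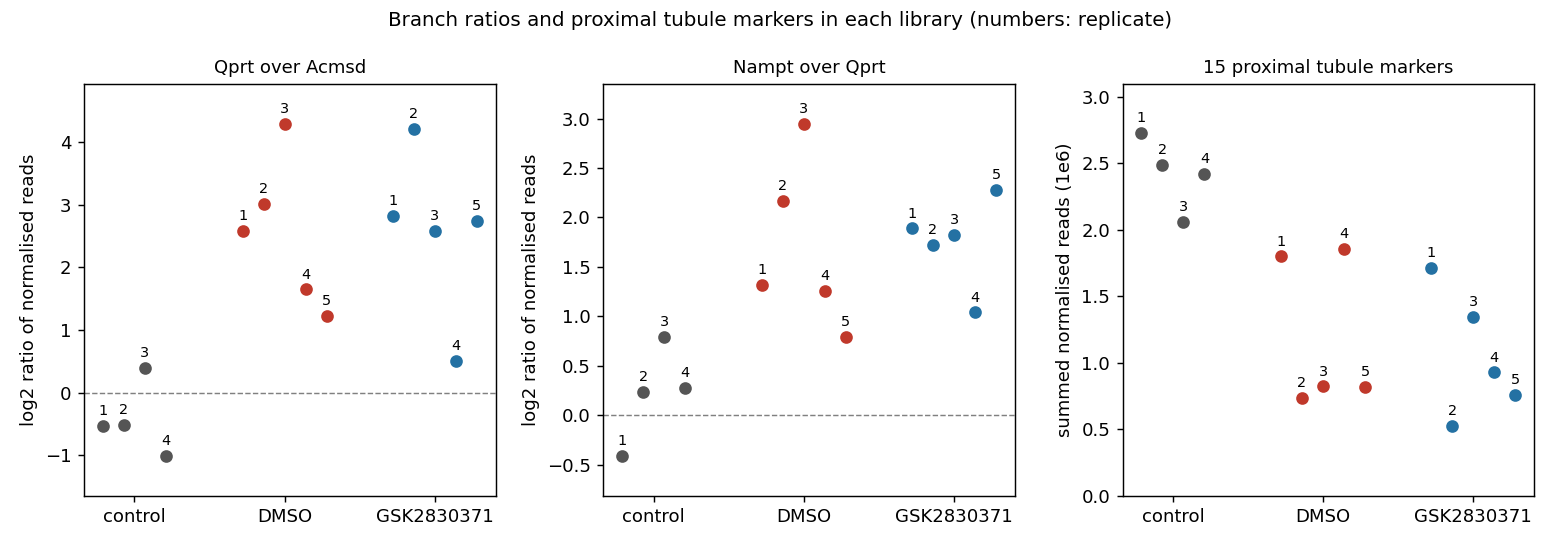
Log2 ratios of Qprt to Acmsd and of Nampt to Qprt, and the summed normalised reads of 15 proximal tubule markers (axis in units of 1e6 reads), in every library of the 3 groups, numbered by replicate. The Qprt to Acmsd ratio is at most 0.40 in the controls and at least 0.50 in i-TERTci libraries, and the marker sum reaches 2058560 reads in controls only.

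Among the 10 i-TERTci libraries, some members varied together, as correlations of log2 values across libraries of 2 treatments taken as 1 set. Acmsd and Kynu had a Pearson r of 0.88 (Spearman rho 0.92), Qprt and Kynu 0.86 (0.79), and Qprt and Acmsd 0.85 (0.88). Haao followed Kmo (0.81, rho 0.76) and neither Kynu (0.08, rho 0.15) nor Acmsd (0.11, rho 0.16). Sirt1 had r between -0.44 and 0.12 with the other members (rho -0.6 to 0.26), lowest by both measures with Nmnat1.

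Over all 12270 genes averaging at least 100 normalised reads Pdzd2 was among the genes most like Acmsd (r 0.98, rho 0.98). Those most like Qprt were Bdh2 (0.96, rho 0.94) and Cgnl1 (0.96, rho 0.92), and those most like Kynu were Tango6 (0.96, rho 0.93) and Olfm3 (0.94, rho 0.90). Haao was nearest to Prorp (0.93, rho 0.88) and Ahcyl1 (0.93, rho 0.85), and Kmo to Mrps35 (0.97, rho 0.94) and Aldh16a1 (0.95, rho 0.93). Nmnat1 was nearest to Coprs (0.95, rho 0.85) and Pomgnt1 (0.95, rho 0.84), and Nadsyn1 to Phyhip (0.91, rho 0.79) and Gp2 (0.87, rho 0.83). Eif4ebp2 was among the genes most like Sirt1 (0.90, rho 0.83). Nampt was nearest to Hspb6 (0.88, rho 0.65) and Asb11 (0.87, rho 0.84), and Nnmt to Dpy19l1 (0.91, rho 0.87) and Myh10 (0.91, rho 0.81). The highest of 12270 correlations over 10 libraries are large by selection, and they are given as a description.

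The wider NAD genes were taken from a list of transporters, enzymes and regulators, of which 56 were in both tables and 53 passed the filter. In the DMSO group 24 of the 53 (45.3%) fell and 8 (15.1%) rose, beside 23.1% and 25.2% of all genes. In the GSK2830371 group 18 (34.0%) fell and 7 (13.2%) rose, beside 22.1% and 24.3%. The median log2 change of the 53 was -0.38 and -0.25, beside 0.03 and 0.01 over all genes. With Xist status as a covariate, the DMSO comparison gave 13 falls and 3 rises, beside 3224 falls and 3579 rises among all 18810 genes. Between GSK2830371 and DMSO none was called.

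The tryptophan-opening dioxygenases Tdo2 and Ido1 had at most 15.8 and 7.33 normalised reads in any library and were not tested. Ido2, a related dioxygenase chosen after its values were seen, had 440 to 699 normalised reads in the controls, 87.1 to 248 with DMSO and 33.9 to 309 with GSK2830371. It fell by 1.95 on the log2 scale (limma adjusted p = 0.00609) and by 1.80 (adjusted p = 0.0106). Of the 6 tested genes for entry and kynurenine side arms, 5 (83.3%) fell in the DMSO group and 4 (66.7%) in the GSK2830371 group, beside 23.1% and 22.1% of all genes. Aldh8a1, an aldehyde dehydrogenase that acts on the product of Acmsd, had a mean of 27934 ± 3374 normalised reads (SD, n = 4) in the controls. It had 6933 ± 2068 (n = 5) with DMSO and 7986 ± 2712 (n = 5) with GSK2830371, with no overlap with the controls. Its log2 changes were -2.06 (limma adjusted p = 2.47e-05) and -1.87 (adjusted p = 6.15e-05). Aadat, an aminotransferase that makes kynurenate, was chosen after its values were seen. Its mean went from 124660 ± 15159 normalised reads in the controls to 11596 ± 9240 with DMSO (log2 change -3.76, adjusted p = 0.00371). With GSK2830371 it was 30316 ± 36320 (log2 change -3.21, adjusted p = 0.00994). Afmid, kynurenine formamidase, fell by 0.78 in the DMSO group (adjusted p = 0.0145) and had a difference of -0.36 in the GSK2830371 group (adjusted p = 0.239).

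Of 7 uptake genes, 3 (42.9%) fell and 1 (14.3%) rose in the DMSO group, and 2 (28.6%) fell in the GSK2830371 group, beside 23.1%, 25.2% and 22.1% of all genes. Slc7a8, an exchanger of neutral amino acids, fell by 2.65 on the log2 scale with DMSO (limma adjusted p = 3.02e-05) and by 2.22 with GSK2830371 (adjusted p = 0.00014). Slc5a8, a carrier of monocarboxylates including nicotinate, had a difference of 0.83 between GSK2830371 and DMSO at an unadjusted p of 0.00879 and an adjusted p of 0.994. Its levels were 1975 to 3989 normalised reads with DMSO and 2635 to 7162 with GSK2830371, with 4 of 5 GSK2830371 libraries above all DMSO libraries.

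Of 10 other NAD makers, 4 (40.0%) fell and 0 rose in the DMSO group, beside 23.1% and 25.2% of all genes. In the GSK2830371 group 2 (20.0%) fell and 2 (20.0%) rose, close to the 22.1% and 24.3% of all genes. Nmrk1, a nicotinamide riboside kinase of the salvage side chosen after its values were seen, fell by 0.76 with DMSO (limma adjusted p = 0.0411) and by 0.89 with GSK2830371 (adjusted p = 0.0204). Slc12a8, reported as a carrier of nicotinamide mononucleotide, was scarce at 35.5 ± 7.47 normalised reads in the controls and fell by 1.5 with DMSO (limma adjusted p = 0.0132). Nmnat2, a cytosolic relative of Nmnat1, had 20.8 ± 4.91 normalised reads in the controls and fell by 0.93 with DMSO (adjusted p = 0.0306). With GSK2830371 neither passed, with differences of -0.97 (adjusted p = 0.0931) and -0.37 (adjusted p = 0.384).

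Of 17 NAD consumers, 4 (23.5%) rose and 4 (23.5%) fell in the DMSO group, close to the 25.2% and 23.1% of all genes. Under GSK2830371 3 (17.6%) rose and 5 (29.4%) fell, beside 24.3% and 22.1%. Sirt6, a nuclear sirtuin, went the other way from Sirt1. It fell from 807 ± 133 normalised reads to 311 ± 44.4 with DMSO (log2 change -1.37, limma adjusted p = 5.59e-05) and 333 ± 71.2 with GSK2830371 (log2 change -1.28, adjusted p = 0.000105). Parp10, a mono-ADP-ribosyltransferase, rose by 0.66 with DMSO (adjusted p = 0.0199) and had a difference of 0.36 with GSK2830371 (adjusted p = 0.182).

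Of 5 tested genes for nicotinamide clearance and NAD breakdown, 3 (60.0%) fell and 1 (20.0%) rose in the DMSO group. The shares of all genes were 23.1% and 25.2%. In the GSK2830371 group 1 (20.0%) fell and 1 (20.0%) rose, close to the 22.1% and 24.3% of all genes. Enpp1, an ectoenzyme that cleaves pyrophosphate bonds, including that of NAD, rose by 1.18 with DMSO (limma adjusted p = 0.000311) and by 1.39 with GSK2830371 (adjusted p = 9.08e-05). Its relative Enpp3 fell by 0.75 with DMSO (adjusted p = 0.0227) and had a difference of -0.31 with GSK2830371 (adjusted p = 0.331).

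Of 8 regulators and receptors, 5 fell and 2 rose in the DMSO group, beside 23.1% and 25.2% of all genes. The rises with DMSO were thus close to the share of all genes. In the GSK2830371 group 4 fell and 1 rose, beside 22.1% and 24.3% of all genes. Gpr35, a receptor for which kynurenate is a reported ligand, rose by 1.33 with DMSO (adjusted p = 0.0104). Its difference between GSK2830371 and DMSO was -1.26, at an unadjusted p of 0.00312 and an adjusted p of 0.994. It had 84.5 to 298 normalised reads with DMSO and 41.7 to 108 with GSK2830371, against 53.9 to 74.2 in the controls.

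**Figure D5:**
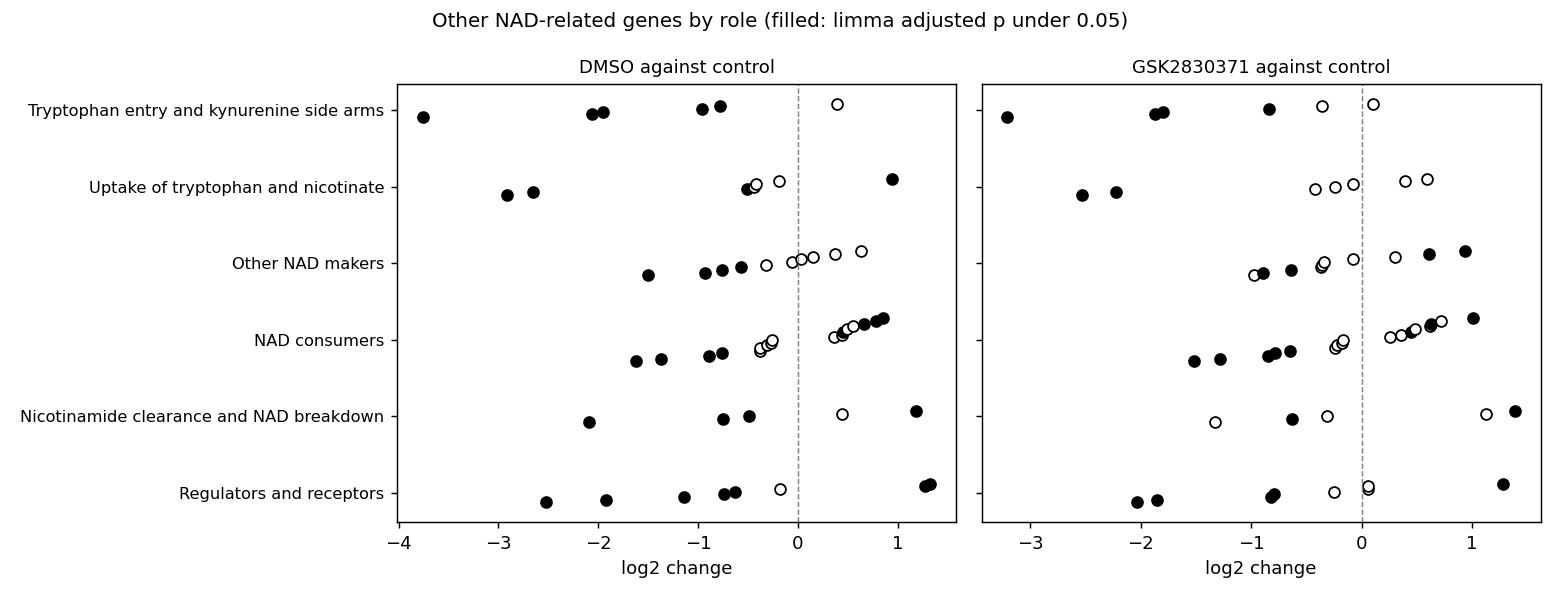
Log2 change of each of the 53 tested NAD-related genes (horizontal axis) by role, for DMSO and for GSK2830371 against control, filled where the limma adjusted p was under 0.05. Falls outnumber rises, 24 to 8 and 18 to 7, and among entry and side-arm genes the filled points all lie below 0.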

How the data were processed

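The deposited tables hold a signal per gene: whole reads that the authors divided by a size factor per library, per the values in the files. Dividing each column by its smallest step gave whole numbers (tolerance 0.001), so reads were recovered; the 4 controls in both tables gave 0 mismatches. One control column of the inhibitor table has a step near 1, and control reads were taken from the vehicle table. The submitters' processing notes name FastQC, Trimmomatic, STAR, DESeq2 and mm10 without versions; how reads were counted, on which annotation and strand is not given in the sources used here. Reads of 14 libraries were rescaled by median-of-ratios size factors, filtered with filterByExpr and tested with limma 3.58.1 on log2 of normalised reads plus 1, with trend and robust moderation, in 1 fit by group, two-sided, with Benjamini-Hochberg adjustment over 18810 genes and a threshold of 0.05. edgeR 4.0.16 and DESeq2 1.42.0 were alternatives, beside other scalings, filters, pseudocounts, groups of libraries, a replicate block and each library left out. R 4.3.3, Python 3.11.15 and matplotlib 3.10.9 were used, and the fit was tested on simulated data. Coordinates come from GENCODE (GRCm38), which matched 96.2% of genes. A fold change understates the change of low genes because of the added 1.

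The members and gene lists were chosen with earlier results of these data known. The text names all 10 members, the gene with the smallest p of each role in DMSO against control and in GSK2830371 against DMSO, and the 2 genes most like each member; some items that this rule names are not reported here. Xist and Y-linked genes gave the sex of each library. Genes in only 1 table were not used here.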

Additional observations from a re-analysis of the deposited data

Results flagged for a closer look

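In 4 of the 30 gene and group combinations tested, 1 library lay far from the others by Dixon's criterion, where chance flags about 1 in 20. Kynu in the controls was lowest in replicate 2, at 1679 normalised reads, with the next library at 2065. Acmsd in the GSK2830371 group was highest in replicate 4, at 2163, with the next at 490. Nmnat1 in the DMSO group was lowest in replicate 3, at 433, with the next at 600. Sirt1 in the controls was highest in replicate 3, at 831, with the next at 550. Without these libraries the Acmsd, Nmnat1 and Sirt1 calls against control held, while without control replicate 2 the Kynu call in the DMSO group was lost (limma adjusted p = 0.0711).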

How the results depend on the processing

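Qprt, Haao, Nmnat1 and Sirt1 kept their calls against control in all 31 alternatives, as did Acmsd and Nadsyn1 for GSK2830371. Over the alternatives 4 to 6 members were lower with DMSO and 5 to 6 with GSK2830371. Of 910 recomputed changes of single members, 860 stayed on the same side of the threshold, 39 lost the call and 11 gained it. Where either value was called, 0 reversed direction. Uncalled differences near 0 could change sign, as Kmo did in the DMSO group (-0.22 to 0.08). With leave-one-out, members called higher in the DMSO group numbered 1 to 2, and those in the GSK2830371 group 1 to 2; scaling by non-mitochondrial reads also gave 2 in the GSK2830371 group. That scaling moved the median of all genes from 0.03 to 0.15 for DMSO and from 0.01 to 0.12 for GSK2830371, and relative to the median Nampt stood at 0.37 and 0.44, as before. Of the wider list, leave-one-out gave 5 to 9 genes higher with DMSO and 4 to 9 with GSK2830371, beside 8 and 7; the lowest came without control replicate 3, and without control replicate 1 or 4. Xist-positive libraries alone gave 3 higher and 11 lower with DMSO, beside 3098 and 2961 of all 18810 genes. Xist status as a covariate gave 3 and 13, beside 3579 and 3224. The cause was not tested. Values as deposited could not be compared between GSK2830371 and DMSO, whose tables were scaled apart.

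Same-numbered deviations correlated at -0.06 to 0.09 for DMSO with control, 0.05 to 0.10 for GSK2830371 with control and -0.03 to 0.34 between the treatments; not every pair passed 0.1, so the numbers were not taken to pair the libraries. Own numbers correlated best in 4 of 8 and 8 of 8 libraries, and in 4 of 10 between the treatments. With the replicate block 2 members, Sirt1 and Nampt, were called higher with DMSO. The same libraries, replicates 1 to 4 with the block left out, chosen after seeing the data, also gave 2. Depth limits Nnmt most, at 13.8 to 152 normalised reads.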
